A study of Mus musculus with 24 samples.

Results

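Mouse myeloid progenitors carrying an estrogen-receptor HoxA9 fusion were compared between 36, 72 and 120 h with the compound R07 (late R07, 3 libraries, 1 at each time) and 24 and 36 h after estradiol withdrawal (4 libraries, 2 at each time), which together are 7 of the 24 RNA-seq libraries of the series. The cells are a C57Bl/6 line named Lys-GFP-ER-HoxA9, kept in medium with 0.5 µM beta-estradiol and stem cell factor, and every library of either group carries the fusion and the Lys-GFP reporter. The other 17 libraries are 16 withdrawal libraries, 2 at each of 0, 4, 8, 12, 48, 72, 96 and 120 h, and 1 library with R07 at 12 h. R07 is known here only by its code. All labels carry 1 treatment text, so they do not say whether estradiol was present while cells were in R07, and its dose was not given in the sources used here. The 7 libraries were chosen by measured values: of the withdrawal times, 24 and 36 h lie close to late R07 on the first principal component of all genes. Closeness on that axis is therefore no finding, and the calls below hold for a contrast picked in this way. The 3 late R07 libraries are different times and not replicates of 1 time, so the spread used for the tests holds change over time. No label says that libraries came from separate cultures, so p-values measure only the spread between these libraries, which may be technical.

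HoxA9 is a homeobox transcription factor that keeps haematopoietic progenitors dividing and holds back their maturation. Fused to the hormone-binding part of the estrogen receptor, it acts while estradiol is present, and the cells mature along the granulocyte and monocyte path once estradiol is taken away. Early in that maturation, progenitor genes are shut off and genes for granule proteins come on under C/EBP factors such as C/EBPε, before genes of the mature neutrophil and macrophage.

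Many progenitor, B lymphoid and signalling genes were higher in late R07 than in withdrawal at 24 and 36 h, and several eosinophil and granule genes were lower. Many genes for ribosome assembly, DNA replication, nucleotide synthesis and protein folding were lower too, by smaller folds. With edgeR's quasi-likelihood test, 3125 of 13350 genes tested were higher and 2545 were lower in late R07 at an adjusted p under 0.05, which is 23.4% and 19.1% of the genes tested. The sizes were unequal: 1834 of the higher calls and 444 of the lower calls were changes of at least 2-fold, while the median log2 change of all genes tested was 0.0059. On the first principal component of the 24 libraries (65.0% of variance) late R07 scored between -52.6 and -34.3 and withdrawal at 24 and 36 h between -52.7 and -26.5. On the second (15.2%) late R07 lay between -42.9 and -37.6 against 47.1 to 70.3, and on the third (5.40%) between -74.4 and -51.5 against 8.30 to 21.5. The late R07 libraries had 38.0 to 47.7 M counts in genes and the withdrawal libraries 43.8 to 47.9 M. Log2 levels of the 2 withdrawal libraries of a time correlated over genes at 0.9962 and 0.9959, and the R07 libraries with each other at 0.9601 to 0.9879, the lowest between 36 and 120 h. In bulk RNA, fewer cells of a type and less RNA per cell cannot be told apart.

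**Figure D1:**
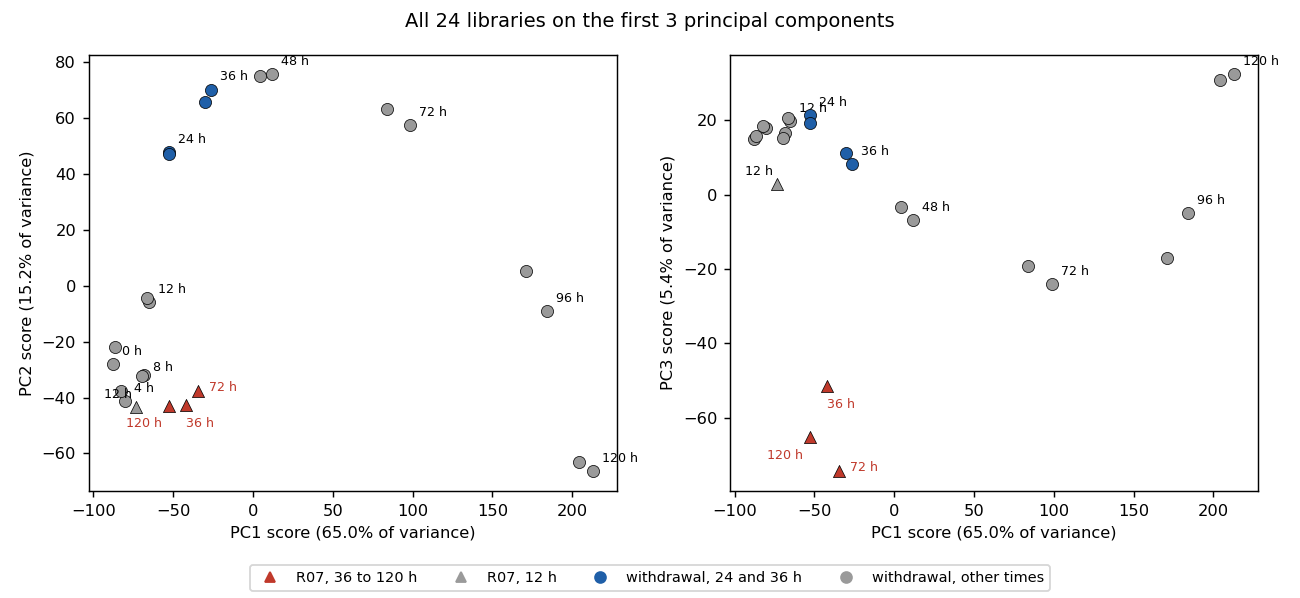
Scores of the 24 libraries on PC1 (x axis) against PC2 (left) and PC3 (right), each with its share of variance; triangles are R07 and circles withdrawal, red and blue mark the 2 groups compared. Red and blue points share a range on PC1 (-52.6 to -34.3 and -52.7 to -26.5) and lie apart on PC2 and PC3.

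**Figure D2:**
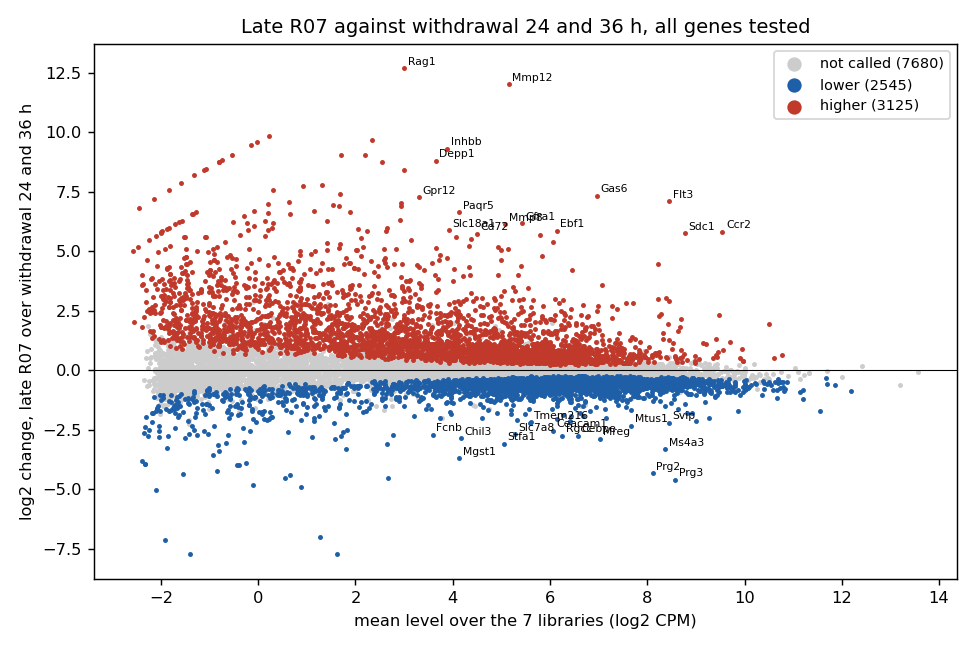
Log2 change of each of the 13350 genes tested (y axis, late R07 over withdrawal 24 and 36 h) against its mean level in log2 CPM (x axis); red genes were called higher, blue lower, and the 15 named genes of each side with the largest changes are labelled. The 3125 higher calls reach further from 0 than the 2545 lower calls.

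Levels are CPM, counts scaled to the same library total. The 3 values given for R07 stand for 36, 72 and 120 h in that order, and the 4 for withdrawal stand for 24 h libraries A and B and then 36 h libraries A and B. Changes are log2 ratios of late R07 over withdrawal with their standard error, and adjusted p-values are Benjamini-Hochberg values of edgeR's quasi-likelihood test over all genes tested. Rise and fall, unless times are compared, mean higher or lower in late R07 than in withdrawal at 24 and 36 h. They do not mean change from 0 h. Counts of list members called stand beside 23.4% called higher and 19.1% called lower over all genes tested. Lack of overlap between the groups was common and does not single out a gene. Of 13350 genes tested, 3218 had all late R07 libraries above those at 24 and 36 h of withdrawal, and 3165 below. Gene positions are those of GRCm38.

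Stem and progenitor genes were mostly higher in late R07: of 21 tested, 13 were called higher and 1 lower, with a median log2 change of 0.9. Flt3 (chr5:147330741-147400489), a receptor tyrosine kinase of early lymphoid and myeloid progenitors, stood at 449, 918 and 938 CPM with R07 and at 6.18, 8.01, 4.18 and 4.16 CPM in withdrawal. The change was 7.11 ± 0.38 (adjusted p = 8.75e-06). Before withdrawal, at 0 h, Flt3 was at 317 ± 30.0 (SD, n = 2) CPM, so R07 at 72 and 120 h was above the starting level and R07 at 36 h near the highest withdrawal library (452 CPM). Hlf (chr11:90336536-90390895), a stem cell bZIP factor, stood at 539, 688 and 642 CPM against 32.9, 31.6, 24 and 24.2 CPM, all 3 R07 libraries above the highest of the 20 withdrawal libraries (445 CPM), with a change of 4.48 ± 0.17 (adjusted p = 3.74e-06). Mycn, a member of the MYC family, stood at 4.63, 6.72 and 9.41 CPM against 0.0463, 0.0422, 0.044 and 0.0214 CPM. No withdrawal library of any time exceeded 1.62 CPM, and the change was 7.42 ± 0.39 (adjusted p = 8.75e-06).

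Meis1, a homeobox partner of HoxA9, stood at 37.2, 53.4 and 72.1 CPM with R07 and 9.4, 10.3, 7.98 and 8.05 CPM in withdrawal, a change of 2.62 ± 0.23 (adjusted p = 7.67e-05). The R07 level was lowest at 36 h and highest at 120 h, and all 3 values lie above every withdrawal library. Kit, the receptor for stem cell factor, stood at 901, 1063 and 1002 CPM against 411, 391, 383 and 404 CPM and changed by 1.33 ± 0.1 (adjusted p = 4.53e-05). Angpt1, a ligand of the Tie2 receptor, stood at 448, 677 and 588 CPM against 114, 107, 34.5 and 34.6 CPM and changed by 2.99 ± 0.46 (adjusted p = 0.00126). For Kit and Angpt1 too the R07 libraries lie above all 20 withdrawal libraries, whose highest values were 799 and 384 CPM. Cd34, a progenitor surface glycoprotein, stood at 2866, 2203 and 2135 CPM against 851, 890.2, 375 and 401 CPM and at 2784 ± 83.7 (SD, n = 2) CPM at 0 h, so R07 levels lay near or under the starting level and above the 24 and 36 h libraries (1.94 ± 0.32, adjusted p = 0.00188). Against 12 and 24 h of withdrawal Cd34 lost its call (0.65, adjusted p = 0.197). The transgene's own gene name gives no call: Hoxa9 stood at 66.2, 202 and 175 CPM against 182, 184, 220.2 and 230.3 CPM (-0.44 ± 0.33, adjusted p = 0.301), with the 36 h R07 library lowest, and whether reads of the fusion are counted there was not tested.

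B lymphoid genes were called higher in 11 of 13 members tested and lower in 0, with a median log2 change of 2.58. Rag1 and Rag2 encode the recombinase that cuts antigen receptor genes. Rag1 (chr2:101638282-101649501) stood at 25.6, 17 and 10.8 CPM with R07 and had no count in any of the 4 withdrawal libraries, so it was at least 1100-fold higher, taking 3 counts over the withdrawal group as the limit. Rag2 (chr2:101624718-101632529) stood at 154, 114 and 92.1 CPM against 2.76, 3.02, 1.93 and 1.5 CPM, and the change was 5.71 ± 0.28 (adjusted p = 7.32e-06). Both genes were above their 0 h level at 12 h with R07 (61.2 and 205 CPM, against 40.7 ± 6.21 (SD, n = 2) and 125 ± 3.8 (SD, n = 2) CPM at 0 h). They were lower at each later R07 time, while staying above the withdrawal libraries at 24 and 36 h. Rag1 at all 3 late R07 times, and Rag2 at 72 and 120 h, lay under the 0 h level. Ebf1, a transcription factor that starts the B cell programme, stood at 108, 177 and 173 CPM against 3.5, 3.8, 1.6 and 1.65 CPM (5.87 ± 0.37, adjusted p = 1.82e-05), and its 0 h level was 129 ± 3.68 (SD, n = 2) CPM. Dntt, the template-free polymerase of antigen receptor joining, stood at 13.4, 5.5 and 5.3 CPM against 0.0926, 0.0844, 0.0659 and 0.0643 CPM (6.67 ± 0.45, adjusted p = 2.49e-05). Set against 12 and 24 h, Dntt lost its call (1.92, adjusted p = 0.214). Cd72, a B cell coreceptor, stood at 43.4, 49.3 and 53 CPM against 1.07, 1.56, 0.505 and 0.536 CPM (5.74 ± 0.36, adjusted p = 1.98e-05), above all 20 withdrawal libraries. The summed level of the list was 614, 464 and 399.7 CPM with R07 against 61.3 to 87.8 CPM at 24 and 36 h and 585 to 601 CPM at 0 h.

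**Figure D3:**
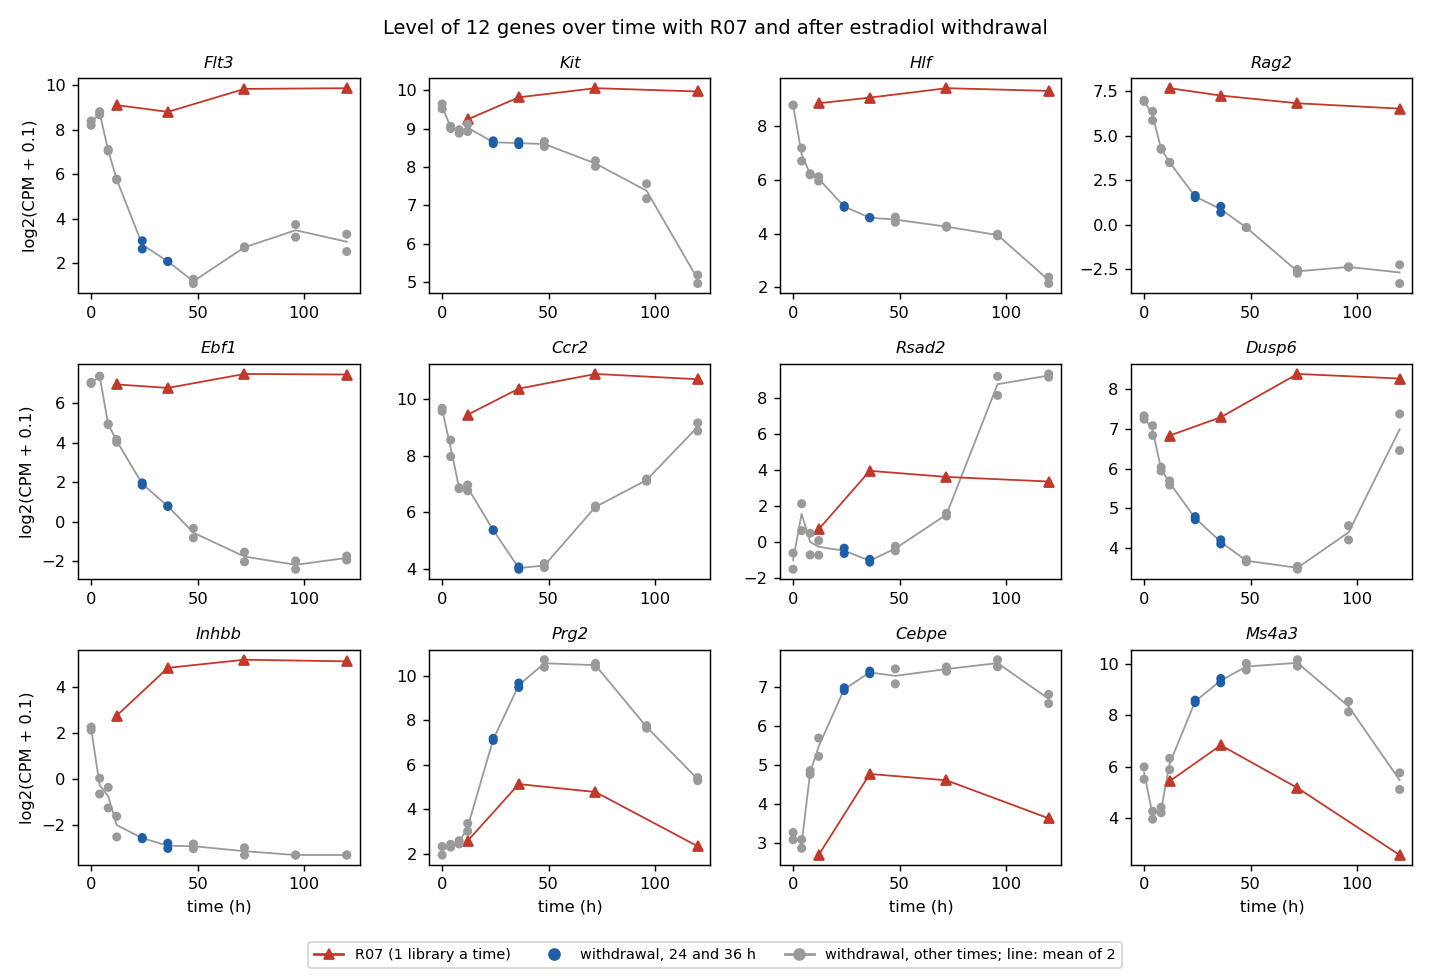
Level of 12 genes as log2(CPM + 0.1) (y axis) against time in hours (x axis); red triangles are the single R07 libraries, blue circles the withdrawal libraries at 24 and 36 h, grey circles those at other times, and the grey line joins means of 2. Flt3, Kit, Hlf, Ebf1, Ccr2 and Inhbb lay above withdrawal at 24 and 36 h in each late R07 library, Rag2 declined from 205 CPM at 12 h, Rsad2 rose late in withdrawal far above R07, and Prg2, Cebpe and Ms4a3 stayed below the withdrawal course at 24 and 36 h.

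Among growth factor and cytokine receptors, 10 of 21 tested were higher and 1 lower, Flt3 with the second largest change and Il7r, the interleukin 7 receptor, with the largest. Il7r stood at 9.35, 4.33 and 2.54 CPM with R07 against 0, 0.0633, 0 and 0.0214 CPM, and the change was 7.79 ± 0.74 (adjusted p = 0.000123). It rests on low withdrawal counts, and the change was 9.07 without the 24 h library B and 7.17 without R07 36 h. Tgfbr2, a receptor for TGF-β, stood at 94.1, 92.8 and 68 CPM against 17.3, 17.4, 16.8 and 15.9 CPM, with no overlap and a change of 2.34 ± 0.13 (adjusted p = 8.9e-06). Several other surface proteins and ligands had larger changes than Tgfbr2. Gas6, the ligand of the TAM receptor kinases, stood at 256, 293 and 278 CPM against 2.96, 2.87, 0.527 and 0.493 CPM (7.34 ± 0.61, adjusted p = 6.54e-05). Gfra1, the coreceptor for GDNF, stood at 93.9, 80.4 and 106 CPM against 2.04, 1.88, 0.615 and 0.685 CPM (6.18 ± 0.41, adjusted p = 2.49e-05). Sdc1, a heparan sulfate proteoglycan, stood at 613, 1219 and 1004 CPM against 21.7, 21, 13.4 and 14 CPM (5.77 ± 0.31, adjusted p = 8.75e-06). For Gas6, Gfra1 and Sdc1 the R07 libraries lie above all 20 withdrawal libraries.

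Feedback regulators of receptor kinase signalling, genes such as the dual specificity phosphatases and Sprouty proteins that ERK signalling induces and that dampen it, were higher in 16 of 22 members and lower in 0, with a median log2 change of 1.39. Dusp6, an ERK phosphatase, stood at 157, 335 and 309.8 CPM with R07 and 26.1, 27.6, 17.1 and 18.4 CPM in withdrawal, a change of 3.6 ± 0.29 (adjusted p = 6.16e-05). Spry4, a Sprouty protein, stood at 14.5, 41.9 and 68.4 CPM against 3.87, 3.94, 1.25 and 1.41 CPM and changed by 4.01 ± 0.6 (adjusted p = 0.00108). Spred3, a related inhibitor of Ras signalling, stood at 7.02, 8.77 and 9.1 CPM against 1.32, 1.18, 1.43 and 1.59 CPM and changed by 2.6 ± 0.19 (adjusted p = 3.97e-05). In all 3 genes every R07 library lies above the 4 withdrawal libraries, and R07 at 72 and 120 h above R07 at 36 h. At 0 h Dusp6 was at 152 and 161 CPM and Spry4 at 52.1 and 45.4 CPM. The summed level of the list was 578, 826 and 835 CPM with R07. It was 217 to 303 CPM at 24 and 36 h of withdrawal and 684 to 690 CPM at 0 h. Of the 22 members, 1 lay above all 20 withdrawal libraries. Egr1, an immediate early factor, was only just above withdrawal at 36 h (0.21, 3.9 and 12.7 CPM against 0.0926, 0.19, 0.0879 and 0.171 CPM). Its change of 5.36 ± 1.11 (adjusted p = 0.00525) was 3.93 without R07 120 h.

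Monocyte and macrophage genes were higher in 8 of 20 tested and lower in 0, but with values far below the end of withdrawal for several. Mmp12, the macrophage elastase, stood at 6.92, 99.97 and 128 CPM against 0, 0.0211, 0.022 and 0.0214 CPM, which is 3 counts in all 4 withdrawal libraries. The ratio of levels was 4710 (95% interval from counting error 1610 to 22900), and at 120 h of withdrawal Mmp12 reached 123 ± 33.4 CPM. Ccr2 (chr9:124101950-124113557), the receptor that calls monocytes to CCL2, stood at 1317, 1885 and 1658 CPM against 41.1, 41.6, 16.8 and 15.8 CPM and changed by 5.83 ± 0.42 (adjusted p = 3.72e-05). Its R07 values exceed all 20 withdrawal libraries, the highest of which was 815 CPM. Maf, a macrophage transcription factor, stood at 6.71, 6.0 and 2.85 CPM against 0.579, 0.569, 0.681 and 0.60 CPM (3.1 ± 0.31, adjusted p = 0.000149) and at 264 ± 9.04 CPM at 120 h of withdrawal. Lgmn, a lysosomal protease, stood at 26.2, 8.85 and 10.7 CPM against 0.44, 0.59, 0.374 and 0.364 CPM (5.1 ± 0.42, adjusted p = 6.25e-05, and 4.49 without R07 36 h) and at 1012 ± 71 CPM at 120 h. Itgax, an integrin of dendritic cells and macrophages, stood at 26.9, 33.2 and 23.1 CPM against 1.83, 1.54, 0.637 and 0.536 CPM (4.62 ± 0.41, adjusted p = 9.13e-05). The colony-stimulating factor receptor Csf1r, in contrast, overlapped at 23.6, 17.5 and 5.18 CPM against 9.15, 9.51, 24.2 and 25 CPM (-0.13 ± 0.53, adjusted p = 0.859), as did the integrin Itgam at 159.7, 185 and 46.2 CPM against 31.3, 32.4, 125 and 110.2 CPM (0.81 ± 0.59, adjusted p = 0.295). Itgam was called higher against 24 h alone (2.03, adjusted p = 0.0467), against 12 and 24 h (2.48, adjusted p = 0.00692) and with all 24 libraries in the fit (adjusted p = 0.00255), and was at -0.87 against 36 and 48 h (adjusted p = 0.26). Csf1r was called lower against 36 and 48 h (-1.77, edgeR adjusted p = 0.0498).

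All 7 MHC class II genes tested were called higher, out of 10 on the list, the other 3 having too few counts. Their median log2 change was 2.79. H2-Ob, a modulator of peptide loading, stood at 49.2, 82.1 and 72.9 CPM against 2.11, 2.68, 1.38 and 2.06 CPM and above all 20 withdrawal libraries (highest 11.3 CPM), with a change of 5.06 ± 0.26 (adjusted p = 8.75e-06). H2-DMa, part of the peptide exchange factor, stood at 24.7, 27.2 and 32.7 CPM against 3.45, 3.84, 4.42 and 4.78 CPM (2.79 ± 0.17, adjusted p = 1.62e-05), and at 156 ± 10.4 CPM at 120 h of withdrawal. Inflammatory cytokines and NF-kB genes were higher in 13 and lower in 1 of 21. The chemokine Ccl3 stood at 61.3, 111 and 52.7 CPM against 1.9, 2.28, 2.15 and 2.36 CPM (5.12 ± 0.27, adjusted p = 8.75e-06), and Ccl9 at 1274, 1351 and 1112 CPM against 317, 322, 192 and 166 CPM (2.33 ± 0.24, adjusted p = 0.000204). Neither chemokine overlaps between the groups, and neither exceeds the highest withdrawal library of the whole course (266 and 1368 CPM).

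Interferon-stimulated genes, antiviral effectors and sensors that type I interferon switches on, were higher in 24 of 31 members tested and lower in 0, with a median log2 change of 2.06. The 4 members named had low levels with R07 and levels near 0 in withdrawal. Rtp4 stood at 15.3, 17.7 and 17.3 CPM against 0.162, 0.211, 0.0879 and 0.0428 CPM (7.04 ± 0.35, adjusted p = 7.67e-06). Rsad2, an antiviral enzyme, stood at 15.5, 12.2 and 10.2 CPM against 0.695, 0.548, 0.418 and 0.364 CPM (4.65 ± 0.26, adjusted p = 1.3e-05). Oas3, which makes the activator of RNase L, stood at 6.35, 3.37 and 3.62 CPM against 0.116, 0.148, 0.132 and 0.193 CPM (4.9 ± 0.32, adjusted p = 2.42e-05). Oasl1, a relative of Oas3, stood at 6.81, 8.68 and 10.3 CPM against 0.185, 0.38, 0.176 and 0.30 CPM (5.04 ± 0.31, adjusted p = 1.74e-05). None of the 31 members tested lies outside the withdrawal course. At 120 h of withdrawal these 4 genes reached 377 ± 42.1, 608 ± 52.7, 967 ± 150.1 and 252 ± 19.3 CPM. The list summed to 559, 466 and 420.5 CPM with R07 against 219.9 to 246 CPM in withdrawal at 24 and 36 h.

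Because these 4 genes were higher together, the 250 bases before their start sites were searched for GAAANNGAA, a form of the interferon response element, on both strands. The motif and the genes were chosen after the values were seen. Of the 4 genes 3 had an entry in the RefSeq promoter table (GRCm38.p6), and 2 of these held the motif, Oas3 and Rsad2 but not Oasl1, as did 7.13% of all promoters of the table. Both sequences are shown with the match in capitals. They lie at chr5:120777660-120777909 (minus strand) and chr12:26456453-26456702 (minus strand), and the matches in Oas3 overlap.
Oas3: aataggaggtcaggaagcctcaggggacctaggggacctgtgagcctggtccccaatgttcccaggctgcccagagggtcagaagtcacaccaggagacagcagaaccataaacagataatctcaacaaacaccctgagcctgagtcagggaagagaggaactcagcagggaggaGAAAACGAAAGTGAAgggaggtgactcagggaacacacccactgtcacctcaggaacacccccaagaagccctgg
Rsad2: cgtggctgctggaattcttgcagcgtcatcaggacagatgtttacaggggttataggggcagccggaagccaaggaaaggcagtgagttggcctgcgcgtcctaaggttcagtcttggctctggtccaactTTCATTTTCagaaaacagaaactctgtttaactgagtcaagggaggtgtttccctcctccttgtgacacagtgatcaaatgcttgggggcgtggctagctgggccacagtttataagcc
A match is a description of these letters and no evidence of binding.

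Several of the genes with the most negative changes, late R07 against withdrawal at 24 and 36 h, encode granule proteins. Of 7 eosinophil genes tested, 4 were called lower and 2 higher. Prg2 (chr2:84980461-84983632) and Prg3 (chr2:84988215-84993886), major basic proteins of eosinophil granules, had the most negative changes among the genes named by size. Prg2 stood at 34.7, 27.1 and 4.93 CPM with R07 against 136, 145, 812 and 708 CPM (-4.33 ± 0.92, adjusted p = 0.00602). This call was lost against withdrawal at 12 and 24 h (-1.75, adjusted p = 0.252). Prg3 stood at 31.9, 31 and 13.4 CPM against 428, 441, 892 and 725 CPM (-4.6 ± 0.42, adjusted p = 0.000101). Both were lowest at 120 h with R07 and higher at 36 h of withdrawal than at 24 h. At 0 h Prg2 was at 3.73 and 4.90 CPM and Prg3 at 4.23 and 5.93 CPM. Late R07 was thus not below the starting level of either gene, and Prg2 at 120 h was near it. The 2 eosinophil genes that rose were Siglecf, a sialic acid receptor, at 189, 158 and 109 CPM against 36.2, 37.2, 49 and 40.9 CPM (1.9 ± 0.18, adjusted p = 0.000128), and Alox15, a lipoxygenase, at 3.19, 14.4 and 13 CPM against 1.41, 1.92, 1.74 and 1.48 CPM (2.66 ± 0.46, adjusted p = 0.00218).

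Cebpe (chr14:54710360-54712174), which encodes C/EBPε, the factor required for secondary granule genes, stood at 27.3, 24.4 and 12.4 CPM with R07 and 119.98, 126, 169 and 162 CPM in withdrawal. The groups are far apart, the change was -2.75 ± 0.27 (adjusted p = 0.000148), and the 0 h level was 9.02 ± 0.827 (SD, n = 2) CPM. Of 15 secondary and tertiary granule genes tested, 5 were lower and 3 higher. Over all genes tested the shares were 19.1% lower and 23.4% higher. Fcnb, a ficolin, stood at 3.71, 3.35 and 1.12 CPM against 11.5, 12.3, 24.3 and 24.2 CPM (-2.72 ± 0.46, adjusted p = 0.00198). Chil3, a chitinase-like protein, stood at 3.19, 4.35 and 3.71 CPM against 7.39, 7.95, 52.7 and 41.6 CPM (-2.85 ± 0.74, adjusted p = 0.0139), the 36 h withdrawal libraries being far above the 24 h ones. Ngp, neutrophilic granule protein, stood at 0.712, 1.15 and 0.584 CPM against 1.53, 1.48, 8.66 and 8.18 CPM (-2.58 ± 0.73, adjusted p = 0.0205). At 0 h Fcnb was at 1.04 and 1.01 CPM, Chil3 at 3.12 and 4.09 CPM and Ngp at 0.507 and 0.889 CPM. Without R07 72 h the calls of Chil3 and Ngp were lost (adjusted p = 0.0521 and 0.0517), and that of Ngp also without R07 120 h (0.0556) or without the 36 h withdrawal library B (0.0518). Mmp8, neutrophil collagenase of the same granules, went the other way, at 54.7, 132 and 35.3 CPM against 0.903, 0.991, 1.08 and 1.26 CPM (6.13 ± 0.46, adjusted p = 4.19e-05). That change was 5.43 without R07 72 h, and Mmp8 reached 3071 ± 955 CPM at 120 h of withdrawal.

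On the list of primary granule genes, which are made earliest in granulocyte maturation, 4 were lower and 1 higher of 13 tested. Of all genes tested, 19.1% were lower and 23.4% higher. The lower calls are not all of granule proteins, since the list's lowest change was that of Ms4a3. Of the granule enzymes named here, Prtn3 was called lower, and Mpo and Elane were not called with all 7 libraries. Ms4a3, a membrane protein of granulocyte and monocyte progenitors, stood at 114, 35.8 and 5.72 CPM with R07 against 363, 388, 697 and 620.5 CPM, and fell from 36 to 120 h with R07. Its change was -3.32 ± 0.82 (adjusted p = 0.0119), with -4.6 without R07 36 h and an adjusted p of 0.0595 without R07 72 h. Prtn3, proteinase 3, stood at 567, 405 and 275 CPM against 669.9, 775, 922 and 1024 CPM (-1.02 ± 0.24, adjusted p = 0.00893). Serpinb1a, an inhibitor of granule proteases, stood at 824, 997 and 895 CPM against 1757, 1813, 2471 and 2208 CPM (-1.17 ± 0.15, adjusted p = 0.000603). Myeloperoxidase, Mpo, stood at 9538, 6567 and 4363 CPM against 10142, 10796, 10291 and 11261 CPM and was not called (-0.63 ± 0.23, adjusted p = 0.0515), but was without R07 36 h (-0.92, adjusted p = 0.00251). Neutrophil elastase, Elane, stood at 24.7, 4.14 and 1.84 CPM against 16.8, 20.5, 37.8 and 41 CPM and was not called (-1.51 ± 0.77, adjusted p = 0.142). Without R07 36 h it was called at -3.23 (adjusted p = 0.000741), and for both genes R07 36 h was the highest R07 library. The list had 7 lower calls without R07 36 h and 2 without R07 72 h.

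Other genes among the 15 largest falls include Mgst1, a microsomal glutathione transferase, at 2.41, 3.61 and 0.35 CPM against 13.7, 15.6, 45.5 and 37 CPM (-3.69 ± 0.73, adjusted p = 0.0042, and -4.3 without R07 72 h). Mreg, which acts in the transport of lysosome-related organelles, stood at 21.5, 33.7 and 25.5 CPM against 157, 157, 244 and 238 CPM (-2.87 ± 0.24, adjusted p = 6.65e-05). Rgcc, a regulator of the cell cycle, stood at 24.2, 17.4 and 9.71 CPM against 102, 108, 137 and 115 CPM (-2.75 ± 0.28, adjusted p = 0.000173). Slc7a8, an amino acid transporter, stood at 13.7, 8.34 and 5.02 CPM against 72.4, 65.8, 47.1 and 48.2 CPM (-2.69 ± 0.33, adjusted p = 0.00043). The R07 level at 120 h was below that at 36 h in Mgst1, Rgcc and Slc7a8 but not in Mreg. At 0 h Mgst1 was at 0.253 and 0.455 CPM and Mreg at 6.82 and 7.79 CPM. Rgcc was then at 24.3 and 28.3 CPM and Slc7a8 at 5.68 and 4.38 CPM.

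Since Cebpe fell with these genes, the 250 bases before the start of the 15 genes with the largest falls were searched on both strands for TTGCNNAA, a core form of the C/EBP site. The motif was chosen after the values were seen. Of these genes 12 had an entry in the table, and 3 of the 12 held a match before at least 1 listed start (Fcnb, Mgst1 and Stfa1). Some genes have more than 1 start there, and Mgst1 held the match before 1 of its 2. Of all promoters of the table, counted singly and not by gene, 9.56% held the motif. Fcnb held 2 matches and is shown with Prg3, which had a larger fall and holds none, at chr2:28084879-28085128 (minus strand) and chr2:84987965-84988214 (plus strand), with matches in capitals.
Fcnb: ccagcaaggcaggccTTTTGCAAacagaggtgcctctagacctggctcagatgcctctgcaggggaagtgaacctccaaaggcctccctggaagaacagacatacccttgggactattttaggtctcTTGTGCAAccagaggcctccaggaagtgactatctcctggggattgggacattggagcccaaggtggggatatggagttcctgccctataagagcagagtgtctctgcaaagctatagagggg
Prg3: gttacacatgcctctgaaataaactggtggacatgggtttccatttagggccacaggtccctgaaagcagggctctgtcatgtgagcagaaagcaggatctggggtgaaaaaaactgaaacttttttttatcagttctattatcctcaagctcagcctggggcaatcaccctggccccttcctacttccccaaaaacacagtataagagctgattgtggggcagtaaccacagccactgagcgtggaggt
The absence of a match says only that these letters are not in this window.

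Of 30 myeloid transcription factors tested, 9 were higher and 6 lower, shares near those of all genes tested. Cebpe and Irf4, the latter a factor of monocyte and lymphoid cells at 0.293, 1.3 and 1.12 CPM with R07 against 3.08, 2.85, 7.74 and 7.26 CPM (-2.51 ± 0.57, adjusted p = 0.00831), were among those that fell. Spi1, which encodes PU.1, stood at 176, 132 and 93.7 CPM against 172, 180.2, 218 and 227 CPM (-0.56 ± 0.2, adjusted p = 0.0466), and this call was lost without any 1 library other than R07 36 h (adjusted p from 0.058 to 0.146). Irf8, a monocyte factor, stood at 40.7, 20.3 and 13.4 CPM against 18, 19.6, 16.8 and 18.7 CPM and was not called (0.44 ± 0.31, adjusted p = 0.271), and without R07 120 h it was called at 0.76 (adjusted p = 0.0313). Myc stood at 464, 482 and 559 CPM against 401, 424, 332 and 359 CPM, a small rise of 0.42 ± 0.13 (adjusted p = 0.0261) that was lost without either 36 h withdrawal library (adjusted p = 0.0731 and 0.0717).

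In the biosynthesis lists more members fell than rose. Ribosome biogenesis genes were lower in 19 of 31 and higher in 0, with a median log2 change of -0.51. Nhp2, a protein of the box H/ACA particles that modify ribosomal RNA, stood at 52.3, 43.4 and 64.6 CPM with R07 against 132, 147, 129.7 and 141 CPM (-1.35 ± 0.14, adjusted p = 0.000222). Utp20, a processome subunit, stood at 75.7, 61.3 and 74.6 CPM against 181, 159.6, 118 and 139.5 CPM (-1.07 ± 0.16, adjusted p = 0.00102), and nucleophosmin, Npm1, at 1109.6, 1346 and 1775 CPM against 2890.3, 2974, 2511 and 2439.8 CPM (-0.92 ± 0.18, adjusted p = 0.00416). None of these 3 overlaps, and 3165 of the 13350 genes tested likewise lay below withdrawal without overlap. Genes of the cytosolic ribosomal proteins were lower in 5 of 31 and higher in 0, a lower share than the 19.1% of all genes, and were lower in 22 without R07 120 h. Without R07 72 h the counts of lower calls were 12 for ribosome biogenesis and 1 for ribosomal proteins.

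Purine synthesis genes were lower in 15 of 25 and higher in 2. Hprt, the purine salvage enzyme, stood at 129, 121 and 144 CPM against 256, 256, 252 and 238 CPM and below all 20 withdrawal libraries (-0.92 ± 0.1, adjusted p = 0.000256). Impdh1, which commits purines to guanine nucleotides, was one of the 2 that rose, at 355, 337 and 348 CPM against 178, 184, 163 and 182 CPM (0.99 ± 0.087, adjusted p = 8.85e-05). Pyrimidine synthesis and salvage genes were lower in 11 and higher in 3 of 29, and lower in 6 without R07 72 h. Rrm2, a subunit of ribonucleotide reductase, stood at 254, 207 and 193 CPM against 385, 401, 415 and 396 CPM (-0.86 ± 0.11, adjusted p = 0.000494), and Dut, the dUTPase, at 90.7, 85.6 and 116 CPM against 203, 216, 189 and 178 CPM (-0.99 ± 0.14, adjusted p = 0.000754). Dhodh, the mitochondrial enzyme of pyrimidine synthesis, stood at 22.4, 19.9 and 24.9 CPM against 29.4, 32, 26.5 and 29.3 CPM, with a change of -0.37 ± 0.12 (adjusted p = 0.0387). Its call was lost without R07 72 h, either 24 h library or the 36 h library B (adjusted p = 0.145, 0.0854, 0.112 and 0.0787).

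DNA replication and S phase genes were lower in 19 of 33 and higher in 0, with a median log2 change of -0.45. The count was 7 without R07 72 h and 12 without the 36 h withdrawal library B. Pola1, the catalytic subunit of DNA polymerase α, stood at 80.0, 65.8 and 70.9 CPM against 145, 132, 122 and 119 CPM (-0.83 ± 0.11, adjusted p = 0.000602), and Orc1, of the origin recognition complex, at 18.5, 9.9 and 9.38 CPM against 25.5, 26.1, 24.3 and 24.9 CPM (-0.99 ± 0.22, adjusted p = 0.00786). Genes of G2 and mitosis were lower in 2 of 28 and higher in 1, but lower in 15 without R07 36 h and in 0 without R07 72 h. Mki67, a proliferation marker, stood at 738, 559 and 382 CPM with R07, on both sides of the 548, 548, 588 and 546 CPM of withdrawal, and was not called (0.013 ± 0.18, adjusted p = 0.96). Among G1 regulators 7 of 15 were higher and 0 lower, and 4 were higher without R07 72 h or the 24 h withdrawal library A. The inhibitor Cdkn2d stood at 36.5, 35.5 and 32.6 CPM against 19.5, 22.1, 22.8 and 23.7 CPM (0.67 ± 0.11, adjusted p = 0.00147) and Cdkn2c at 44.1, 37.3 and 27.5 CPM against 19.9, 20.5, 20.4 and 18.8 CPM (0.88 ± 0.15, adjusted p = 0.00208).

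Genes of the unfolded protein response were lower in 14 of 25 and higher in 0. Without R07 36 h, 6 were higher and 15 lower. The list summed to 10144.5, 9572 and 9584 CPM with R07. It was 13961 to 15961 CPM at 24 and 36 h of withdrawal and 9702 to 10578 CPM at 0 h. Sdf2l1, a cofactor of the endoplasmic reticulum chaperone BiP, stood at 50.4, 33.2 and 37.9 CPM against 122, 132, 123 and 114 CPM, below all 20 withdrawal libraries (-1.59 ± 0.14, adjusted p = 9.75e-05). Pdia6, a disulfide isomerase, stood at 325, 261 and 286 CPM against 593, 611, 578 and 567 CPM (-1.0 ± 0.1, adjusted p = 0.000193). Glycolysis and glucose transport genes were lower in 12 and higher in 1 of 23. Hexokinase 2, Hk2, stood at 61.4, 65 and 50.9 CPM against 124, 118, 111 and 128 CPM (-1.01 ± 0.11, adjusted p = 0.00022) and lactate dehydrogenase, Ldha, at 559, 362 and 432 CPM against 832, 899, 730.2 and 977 CPM (-0.92 ± 0.16, adjusted p = 0.0025). NRF2 and oxidative stress genes were lower in 11 and higher in 5 of 24. Gsr, glutathione reductase, stood at 261, 219 and 106 CPM against 605, 586, 768 and 728 CPM (-1.78 ± 0.28, adjusted p = 0.00135), and Hmox1, haem oxygenase, was among those that rose, at 10.3, 10.3 and 7.03 CPM against 2.25, 2.78, 3.16 and 3.6 CPM (1.65 ± 0.22, adjusted p = 0.000572).

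Calls of cholesterol synthesis genes changed with the R07 time that was left out. Of 24 genes tested, 8 were lower and 0 higher. The number of lower calls was 21 without R07 36 h, 3 without R07 72 h and 4 without R07 120 h. Without a withdrawal library it was 4 to 6. Cyp51, the sterol demethylase, stood at 143, 56.8 and 54.1 CPM with R07 against 175, 169.97, 198 and 221 CPM, so that the 36 h library was near withdrawal and the 72 and 120 h libraries far below (-1.17 ± 0.32, adjusted p = 0.0172, and 0.0799 without R07 72 h). Ebp, a sterol isomerase, stood at 31.7, 19 and 17.8 CPM against 44.9, 48, 49.5 and 54.2 CPM (-1.1 ± 0.19, adjusted p = 0.00247). Targets of ATF4 and amino acid metabolism genes were higher in 2 of 30 and lower in 0, and higher in 15 without R07 36 h. Slc7a11, the cystine transporter, stood at 55.4, 156 and 169 CPM against 39.9, 34.4, 33 and 37.9 CPM (1.83 ± 0.33, adjusted p = 0.00273), with no overlap. Of p53 targets 7 of 23 were higher and 4 lower, with 12 higher without R07 36 h and 2 lower without R07 72 h, and the shares with all libraries are near those of all genes tested. Trp53inp1, which acts in autophagy and cell death, stood at 54, 32.7 and 18.7 CPM against 5.05, 4.91, 9.47 and 8.85 CPM (2.32 ± 0.37, adjusted p = 0.00145), and Ccng1, cyclin G1, was below all 20 withdrawal libraries at 45.1, 41 and 40.4 CPM against 81, 75.1, 75.7 and 75.2 CPM (-0.85 ± 0.087, adjusted p = 0.000182).

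**Figure D4:**
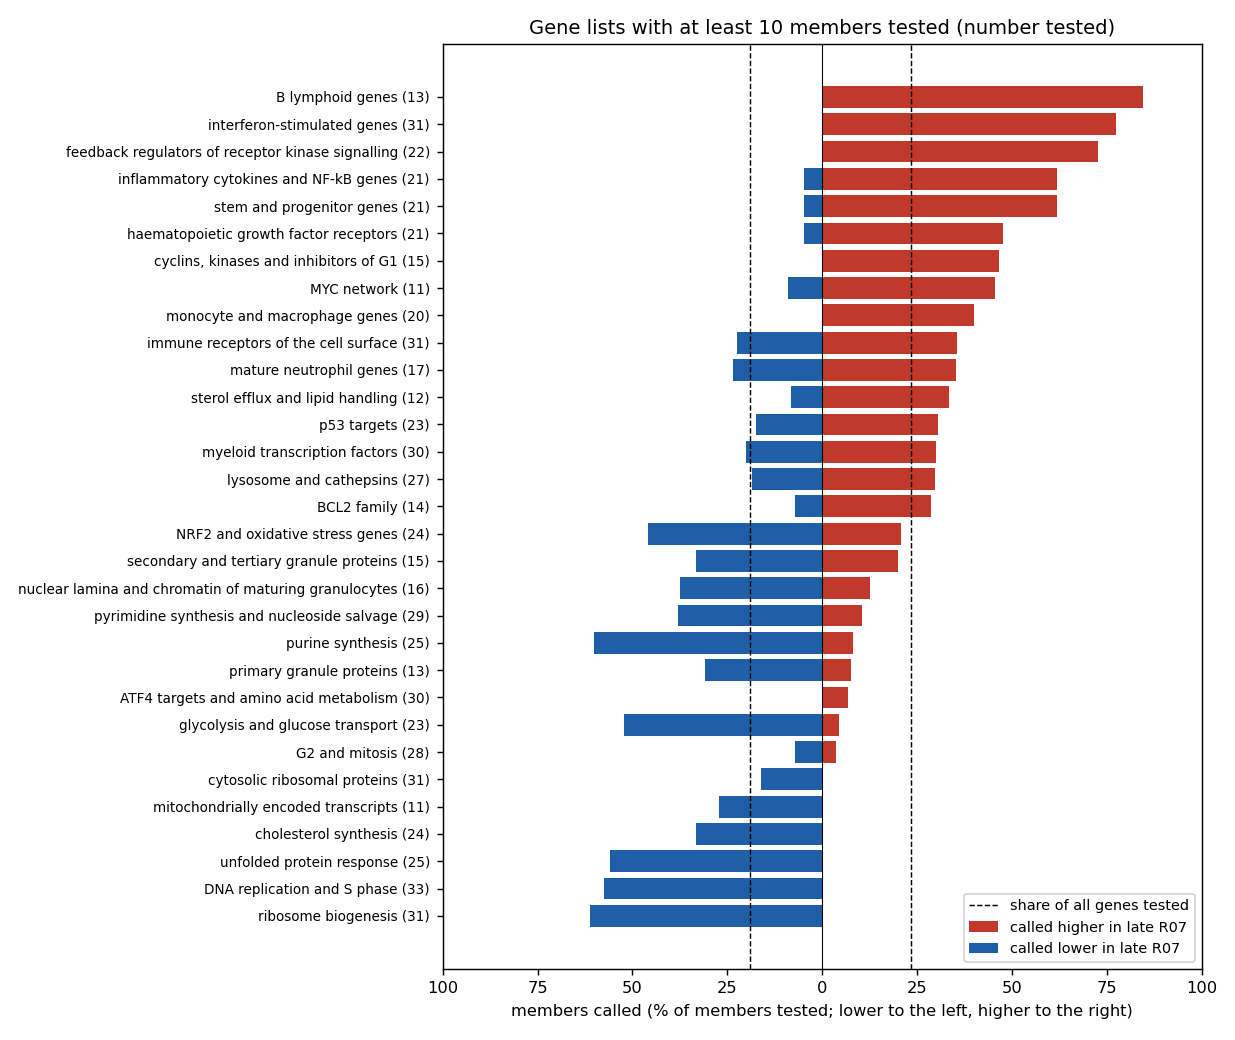
Share of each list's tested members called higher (red, to the right) or lower (blue, to the left) in late R07, in percent (x axis), for lists with at least 10 members tested; dashed lines mark the shares of all genes, 23.4% and 19.1%. B lymphoid (11 of 13), interferon-stimulated (24 of 31) and receptor kinase feedback genes (16 of 22) have the longest red bars, ribosome biogenesis (19 of 31), purine synthesis (15 of 25) and S phase (19 of 33) the longest blue ones.

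Against the whole withdrawal course, all 3 late R07 libraries lay above all 20 withdrawal libraries in 573 genes (4.29%) and below them in 223 (1.67%). Of the called higher genes 551 (17.6%) and of the called lower genes 209 (8.21%) were in these sets. The other 2574 higher calls fell within the course: withdrawal was highest at 0 to 12 h in 931 and at 72 to 120 h in 1620. Likewise, of the other 2336 lower calls withdrawal was lowest at 0 to 12 h in 663 and at 72 to 120 h in 1668. Both counts moved with the R07 36 h library: without it, 1169 genes lay above and 682 below.

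Inhbb (chr1:119415465-119422248), the βB subunit of activin and inhibin, had the widest gap above the course. It stood at 28.1, 35.9 and 34.2 CPM with R07 against 0.0695, 0.0633, 0.022 and 0.0428 CPM, and the highest withdrawal library, at 0 h, had 4.64 CPM (9.32 ± 0.26, adjusted p = 1.07e-06). Trib2, a Tribbles pseudokinase that promotes degradation of C/EBPα, stood at 55.9, 75 and 65.3 CPM against 2.22, 2.11, 0.725 and 2.16 CPM and at most 21.9 CPM in withdrawal (5.19 ± 0.34, adjusted p = 2.15e-05). Cebpa itself, which encodes C/EBPα, stood at 266, 315 and 286 CPM against 221, 225, 166 and 174 CPM (0.57 ± 0.14, adjusted p = 0.0113). Col4a5, a chain of basement membrane collagen, stood at 116, 227 and 199 CPM against 12.4, 12.7, 7.78 and 6.23 CPM (4.23 ± 0.32, adjusted p = 4.53e-05), Tmprss3, a membrane serine protease, at 28, 30.5 and 33.8 CPM against 4.54, 5.12, 6.31 and 6.13 CPM (2.49 ± 0.16, adjusted p = 1.82e-05), and Tle6, of the Groucho family, at 31, 27.7 and 29.6 CPM against 5.17, 6.16, 5.6 and 5.65 CPM (2.39 ± 0.12, adjusted p = 7.67e-06). At 12 h with R07, Tmprss3 and Tle6 were still at 6.63 and 6.52 CPM, within the withdrawal course, while Inhbb (6.58 CPM) and Trib2 (31.3 CPM) were already above it.

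Gaps below the course were narrower. Txn1, thioredoxin, stood at 145, 119 and 133 CPM with R07 against 290.4, 318, 315 and 287 CPM, and no withdrawal library was under 221 CPM (-1.18 ± 0.1, adjusted p = 7.75e-05). Ntan1, an amidase of the N-degron pathway, stood at 27.6, 26.3 and 24.7 CPM against 58.9, 61.6, 69.7 and 66.8 CPM and never under 39 CPM in withdrawal (-1.28 ± 0.1, adjusted p = 4.96e-05). Cndp2, a dipeptidase, stood at 32.5, 43.5 and 46.1 CPM against 72.9, 81, 70.8 and 78.4 CPM (-0.88 ± 0.14, adjusted p = 0.00153), and Stam2, of the endosomal sorting machinery, at 24.6, 24.3 and 22.1 CPM against 42.2, 38.2, 41.6 and 40.8 CPM (-0.77 ± 0.097, adjusted p = 0.000485). Txndc17, a thioredoxin-related protein, and the membrane protein Tmem185a completed the 6, with changes of -0.82 ± 0.12 and -1.02 ± 0.14 (adjusted p = 0.000921 and 0.000677). At 12 h with R07, Txn1 (322 CPM) and Ntan1 (46.5 CPM) were within the withdrawal course, and Cndp2 (62.9 CPM) and Stam2 (32.5 CPM) just under it.

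**Figure D5:**
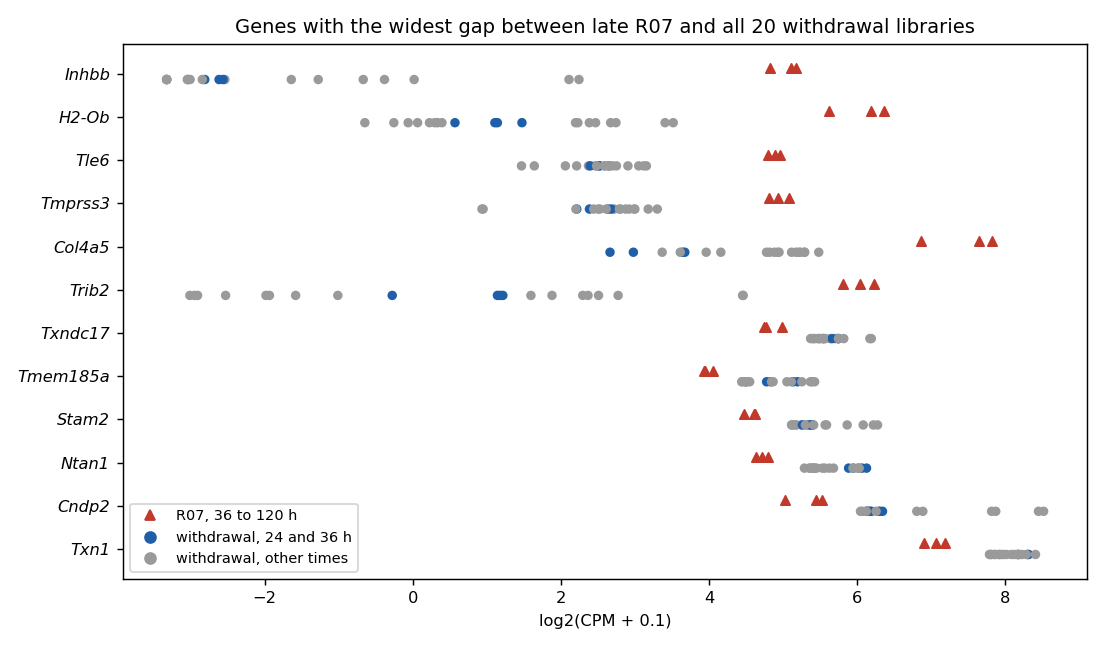
Level as log2(CPM + 0.1) (x axis) of the 12 genes with the widest gaps (y axis); red triangles are the 3 late R07 libraries, circles the 20 withdrawal libraries, blue at 24 and 36 h and grey at other times. In the upper 6 genes each triangle lies to the right of each circle, and in the lower 6 to the left.

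The R07 library at 12 h and the withdrawal libraries at 12 h took no part in the test, but they are among the libraries of the principal components by which the groups were chosen. R07 was at least 2-fold above the mean of the withdrawal libraries at 12 h in 729 of all genes tested (5.46%) and at least 2-fold below in 580 (4.34%). Of the genes called higher in late R07, 540 (17.3%) were already 2-fold higher at 12 h and 85 2-fold lower, and of those called lower, 137 (5.38%) were 2-fold lower and 6 2-fold higher. With 1 R07 library at 12 h these counts have no test. Flt3 was at 555 CPM with R07 against 54.7 ± 0.889 CPM in withdrawal at 12 h, Rag2 at 205 against 11.2 ± 0.117 CPM, Cebpe at 6.41 against 44.5 ± 10.2 CPM and Prg3 at 5.0 against 43.3 ± 5.81 CPM.

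The calls of other genes described above also depended on the withdrawal times set against late R07. Of the 168 named genes that were called, 42 were not called against 12 and 24 h, 26 against 36 and 48 h, 42 against 24 h alone and 40 against 36 h alone. Against 12 and 24 h the log2 changes of genes no longer called higher, with edgeR's adjusted p in brackets, were 3.22 for Egr1 (0.064), 2.05 for Lgmn (0.117), 0.27 for Cebpa (0.0941) and 0.12 for Myc (0.504). Those of granule and myeloid genes no longer called lower were -2.11 for Ms4a3 (0.138), -2.04 for Mgst1 (0.103), -0.93 for Irf4 (0.39), -0.56 for Chil3 (0.26), -0.52 for Prtn3 (0.181), -0.51 for Serpinb1a (0.259), -0.41 for Ngp (0.489) and -0.3 for Spi1 (0.263), and that of Cyp51 was -0.68 (0.196). Against 36 and 48 h they were 1.13 for Trp53inp1 (0.0728), 0.8 for Hmox1 (0.0968), 0.37 for Cdkn2d (0.105) and -0.13 for Dhodh (0.544). Against a single time, Egr1, Cyp51, Orc1, Myc, Spi1 and Dhodh were called at neither, Ms4a3, Irf4, Ngp, Prtn3 and Cebpa were not called against 24 h and Npm1 was not called against 36 h. Mpo, not called in the fit of 7 libraries, was called lower with DESeq2 (adjusted p = 0.0177), without a filter on low counts (0.0459) and with all 24 libraries in the fit (0.0326), and Elane with all 24 libraries (0.0302) and against 36 and 48 h (0.0322).

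Markers of other cell types were checked for all lists. Their counts stand beside 23.4% called higher and 19.1% called lower over all genes tested. T and NK cell genes were nearly silent: 12 of 16 had too few counts to test, Cd3e, Cd8a, Trbc1, Trbc2, Ncr1, Cd2 and Gzma had no count in the 7 libraries, and 3 of the 4 tested were higher. Of 6 erythroid genes tested 3 were higher and 2 lower, Alas2, Car1 and Hba-a2 having no count. Of 9 megakaryocyte genes 5 were higher and 1 lower, and of 7 mast cell and basophil genes 1 was higher, Cpa3 at 1053, 933 and 907 CPM against 695, 692, 417 and 374 CPM (0.84 ± 0.23, adjusted p = 0.0184), and 2 were lower. Dendritic cell genes were higher in 4 of 5 tested, among them Flt3 and Itgax, with Cd209a and Ly6d at 0. Of 4 stroma and endothelium genes tested 0 were higher and 1 lower, with Col3a1, Dcn, Kdr and Lum at 0. Of 22 mature neutrophil genes 17 were tested, 6 higher and 4 lower, and the list summed to 901, 736 and 569 CPM with R07 against 594 to 755 CPM. Summed levels were 22.2, 15.3 and 11.3 CPM with R07 against 6.53 to 7.23 CPM for T and NK cell genes, and 1308, 1066 and 1029.9 CPM against 599 to 1004 CPM for mast cell and basophil genes. The part of such cells in the results was not tested.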

How the data were processed

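RNA-seq counts per gene were deposited for 24 libraries. Per the labels' protocols the libraries were TruSeq stranded mRNA, and per the submitters' processing notes reads were aligned to mm10 with STAR 2.4.2a and handled with Picard. The counting program, its strand setting and the annotation are not given in the sources used here, so overlapping and antisense genes may share reads. Counts as deposited by the authors were tested with edgeR 4.0.16 (R 4.3.3): the 4 rows of unassigned reads were dropped, genes were filtered with filterByExpr, libraries scaled with TMM, and late R07 was set against withdrawal 24 and 36 h in a fit of these 7 libraries without covariates (quasi-likelihood test, adjusted p under 0.05). Levels are CPM scaled over all 24 libraries. Whether libraries lie outside the withdrawal course was read from log2 CPM with a prior count of 2 and has no test. Symbols and positions come from GENCODE for GRCm38, promoters from RefSeq.

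The libraries compared, the 39 gene lists and the 32 single genes named in advance were chosen with earlier results of these data known. Genes were named by rule: those single genes; on each side the 15 largest called changes without overlap, down to a mean log2 CPM of 3; per list the 4 largest called changes, down to a mean log2 CPM of 1; and the 6 called genes per side with the widest gap to all 20 withdrawal libraries. The text describes part of these. Library columns carry the letters A and B for withdrawal and X for R07, and no label says what they mark. If they mark a batch, it cannot be told apart from R07. Alternatives were DESeq2 1.42.0, RLE scaling, no filter on low counts, other withdrawal times, a fit of all 24 libraries and leaving out each library. Intervals and limits from counts cover counting error only.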

Additional observations from a re-analysis of the deposited data

Results flagged for a closer look

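In 6 of the 178 named genes, 1 of the 4 withdrawal libraries at 24 and 36 h stood apart from the other 3 by Dixon's criterion. Chance meets it in about 1 of 20 groups when all values come from 1 population. These libraries come from 24 h and from 36 h, so the share that chance would flag here is not known. The 24 h library A had 0 CPM of Mmp12, where the other 3 had 1 count each. The 24 h library B had 0.169 CPM of Depp1, above the others, and the 36 h library B had 0.0214 CPM of Mycn, below the others. The 36 h library A had 0.725 CPM of Trib2, below the others, and 588 CPM of Mki67, above them. The 24 h library A had 81.0 CPM of Ccng1, above the others. The libraries differ from gene to gene.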

How the results depend on the processing

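Against withdrawal 24 h alone, 3296 genes were called, 2017 higher and 1279 lower, and against 36 h alone 2898, 1871 higher and 1027 lower. These fits use fewer libraries, and 56.1% and 48.9% of the genes called against both times were also called in them. Against 12 and 24 h 4278 genes were called, and against 36 and 48 h 4862. Of the genes called against 24 and 36 h, 65.7% and 73.3% were also called there, and 42 and 15 had the opposite sign. Leaving out 1 library gave 4120 to 7139 calls, 2562 to 3904 higher and 1540 to 3235 lower, the fewest lower calls without R07 72 h and the most without R07 36 h. Of the genes called with all 7 libraries, 70.7% were also called without R07 72 h and 94.3% without R07 36 h. The numbers of genes outside the withdrawal course were 642 to 1169 above and 266 to 682 below when 1 R07 library was left out, the higher values without R07 36 h. With RLE scaling 5639 genes were called, without a filter on low counts 5724, with DESeq2 6154, and with all 24 libraries in the fit 8095, all within 1.5 times the 5670 reported. Of 178 named genes 168 were called, 94 of them under every alternative. Opposite signs occurred in 6 of the 178. Against 12 and 24 h, Bcl2l1 was at -0.086 and Irf8 at -0.20. Against 36 and 48 h, Itgam was at -0.87 (and at 2.48 against 12 and 24 h, where it was called) and Mki67 at -0.15, and Mki67 was at -0.015 against 36 h alone. Csf1r was at 0.032 with 24 and 36 h as separate groups, 0.048 with all 24 libraries, 0.72 against 24 h alone and 0.90 against 12 and 24 h, and Cybb at 0.40, 0.44, 1.70 and 1.73. Of these values only that of Cybb against 12 and 24 h was called (edgeR adjusted p = 0.029). Against 36 and 48 h both genes were called lower, Csf1r at -1.77 (edgeR adjusted p = 0.0498) and Cybb at -3.42 (0.0267). Without 1 library, Irf8 ranged from -0.083 to 0.76, Mki67 from -0.21 to 0.24, Csf1r from -0.54 to 0.30 and Cybb from -0.78 to 0.34. The causes were not tested. No paired analysis was possible because the R07 libraries carry no replicate number. Genes with few counts, such as Rag1 and Mmp12 in withdrawal, are limited by depth.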

Other observations

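Lists not described above changed in both directions or in few members. Shares called over all genes tested were 23.4% higher and 19.1% lower. Of 14 BCL2 family genes tested 4 were higher and 1 lower in late R07, and Bmf, a death-promoting member, stood at 10.0, 7.34 and 4.58 CPM at 36, 72 and 120 h with R07 against 0.51, 0.316, 0.901 and 0.942 CPM in the withdrawal libraries (24 h A and B, 36 h A and B), with a log2 change of 3.46 ± 0.4 (adjusted p = 0.000339, edgeR), and of 1.44 against 36 and 48 h (adjusted p = 0.0912). Bcl2l11, which encodes BIM, stood at 35.5, 26.8 and 31.2 CPM against 15.7, 14.5, 13.2 and 13.5 CPM (1.14 ± 0.13, adjusted p = 0.000295). Without R07 36 h, 7 members were higher. Of 12 genes of sterol efflux and lipid handling 4 were higher and 1 lower, with 2 higher when the 24 h library A or the 24 h library B was left out, 5 lower without R07 36 h and 0 lower without any 1 of the other libraries. Abca1, a cholesterol exporter, stood at 57.9, 52 and 29.9 CPM against 6.79, 5.76, 5.01 and 5.5 CPM (3.02 ± 0.22, adjusted p = 3.9e-05). Of 11 MYC network genes 5 were higher and 1 lower, the last being Mlx, a MAX-like factor that pairs with MondoA, at 36.6, 52.6 and 49 CPM against 140.1, 138, 171 and 169 CPM (-1.73 ± 0.16, adjusted p = 0.000105, and -1.08 against 12 and 24 h, adjusted p = 0.0567).

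Of 27 lysosome and cathepsin genes 8 were higher and 5 lower, shares near those of all genes tested (23.4% and 19.1%), with 1 lower when the 36 h library A or the 36 h library B was left out, 2 without R07 120 h and 3 without the 24 h library A. Surface immune receptors were higher in 11 and lower in 7 of 31, with 2 lower without the 36 h library A and 4 without the 24 h library A. Of the 17 mature neutrophil genes 1 was lower without R07 72 h and 2 without the 36 h library B. Genes of the nuclear lamina and chromatin of maturing granulocytes were higher in 2 and lower in 6 of 16, with 5 higher without R07 36 h, 2 lower without R07 72 h and 3 lower when 1 of the 24 h library A, the 24 h library B or the 36 h library A was left out. Hmgb2, a chromatin protein, stood at 436, 427 and 358 CPM against 647, 651, 731 and 600.2 CPM (-0.68 ± 0.11, adjusted p = 0.00186, and -0.45 against 12 and 24 h, adjusted p = 0.0663). Mitochondrially encoded transcripts were lower in 3 and higher in 0 of 11, and lower in 1 when the 24 h library A, the 24 h library B or the 36 h library A was left out. Tfrc, the transferrin receptor, stood at 519, 388 and 271 CPM against 1234, 1156, 1335 and 1367 CPM (-1.69 ± 0.2, adjusted p = 0.000361), with no overlap.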
